A study of Rattus norvegicus with 77 samples.

Results

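Heat shock proteins and J-domain proteins were described here in the sperm RNA of 77 adult male Fischer 344 rats. They were taken as the genes whose single platform symbol began with Hspa, Hspb, Hsp90a, Hspd, Hspe, Hsph, Dnaja, Dnajb or Dnajc, leaving out Hspa5 and Hsp90b1, with the brightest probe set of a gene where it had several. This gave 60 genes of the 14506 named on the array by 15310 probe sets with 1 symbol, among 29214 probe sets in all. A probe set is the group of probes that reads 1 transcript. The 60 genes were 10 of the HSP70 and HSP110 families, 7 small heat shock proteins, the 4 genes of HSP90, HSP60 and HSP10, and 39 J-domain genes. Rats of the HD group (n = 19) drank 0.33% 2,5-hexanedione (HD), which injures the Sertoli cells of the testis, for 3 months, and rats of the water group (n = 20) drank water. The HD-recovery (n = 20) and water-recovery (n = 18) rats had the same 3 months and then 3 further months on water. Each array held the RNA of 1 rat, and Fischer 344 is an inbred strain.

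Chaperones of the HSP70 family fold proteins in a cycle that needs a partner with a J domain, which brings the client and starts ATP hydrolysis. The cell types of the testis use their own members: Hspa2 is the HSP70 of meiotic and later germ cells, and several J-domain genes are read mainly in spermatids. Ripe sperm make little or no new RNA, so a transcript found in them was mostly made earlier, in the testis. Another set of members (Hspb1, Dnajb1, Hsph1, Hsp90aa1, Hspd1, Hspe1) rises in most cells after heat or protein damage, when heat shock factor 1 binds inverted repeats of the unit GAA in their promoters.

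Promoters are shown for 2 members with this element (Hspe1 and Hsph1) and for Hspa2 and Dnajc4, to let the letters be seen beside the values below. A promoter of 300 bases (250 before and 50 after the start of the gene) was found for 48 of the 60 members in the set of RefSeq promoters used here. Dnajb4, Dnajc15 and Hsp90aa1 were among the 12 without one in that set. The motif of 2 inverted units (GAANNTTC or TTCNNGAA, which read the same on both strands) lay in 16 of the 48, or 33.3%, against 15.9% of all 33469 rat promoters. The longer motif of 3 units (GAANNTTCNNGAA or TTCNNGAANNTTC, each strand reading as the other, and holding the shorter motif) lay in 5 of the 48, or 10.4%, against 0.798% of all. These 5 were Dnaja1, Hspa8, Hspd1, Hspe1 and Hsph1. Hspd1 and Hspe1 run away from each other on opposite strands and share the stretch between them. Of the 4 genes described most closely here, Hspa2 held 1 match of 2 units and Dnajc4 none. A match is a description of letters and not a bound site. The 250 bases before each start follow in the gene's own direction, from RefSeq, build GRCr8, with every match of 2 units in capitals. They lie at chr9:64084077-64084326 (plus strand), chr12:10427118-10427367 (plus strand), chr6:100864192-100864441 (plus strand) and chr1:213611565-213611814 (minus strand).
Hspe1: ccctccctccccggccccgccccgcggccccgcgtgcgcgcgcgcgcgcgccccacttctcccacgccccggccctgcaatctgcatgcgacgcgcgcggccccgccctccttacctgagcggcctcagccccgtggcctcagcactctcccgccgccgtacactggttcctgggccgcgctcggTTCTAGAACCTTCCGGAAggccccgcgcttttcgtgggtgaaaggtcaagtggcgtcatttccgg
Hsph1: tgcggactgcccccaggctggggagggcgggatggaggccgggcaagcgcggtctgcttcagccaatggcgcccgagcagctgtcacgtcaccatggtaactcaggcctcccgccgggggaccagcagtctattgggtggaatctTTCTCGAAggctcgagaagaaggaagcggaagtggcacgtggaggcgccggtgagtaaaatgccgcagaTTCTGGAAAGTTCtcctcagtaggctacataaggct
Hspa2: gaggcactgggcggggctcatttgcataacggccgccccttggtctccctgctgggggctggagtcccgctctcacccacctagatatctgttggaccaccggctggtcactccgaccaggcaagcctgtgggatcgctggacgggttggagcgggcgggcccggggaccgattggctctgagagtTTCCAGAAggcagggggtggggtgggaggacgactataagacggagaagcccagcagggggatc
Dnajc4: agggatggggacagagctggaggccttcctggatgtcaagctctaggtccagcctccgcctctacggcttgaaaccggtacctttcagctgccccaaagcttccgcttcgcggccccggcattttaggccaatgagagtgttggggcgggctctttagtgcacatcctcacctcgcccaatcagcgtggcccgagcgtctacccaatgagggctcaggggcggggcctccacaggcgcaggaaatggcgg

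Values were log2 intensities as deposited, and a difference of 1 on this scale is a doubling. The median of an array ran from 6.51 to 6.78, and the array mean of a probe set had a median of 6.72, which 38 of the 60 members exceeded. Some arrays stood apart: 11 had a median correlation with the other arrays of their own group that lay more than 1.5 interquartile ranges below the lower quartile. They were HD replicates 3, 4 and 5, water replicates 9, 12 and 20, HD-recovery replicates 2, 9 and 16 and water-recovery replicates 12 and 15, with HD replicate 5 the lowest at 0.83. In 9 of the 60 members all 3 of these HD arrays lay above every other HD array, Hspa8, Hspa9, Hspa4 and Dnaja1 among them. The arrays were picked on all probe sets, and the share of all probe sets with this pattern was not measured. The count therefore does not set the members apart from other transcripts. Results are given with and without the 11 arrays. They were picked for their distance from their own group, so leaving them out also lowers the spread that a test uses.

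At the median, members varied between rats of 1 group about as much as other transcripts, but several were among the most variable on the array. The SD within groups had a median of 0.24 over the members and 0.21 over all probe sets, and 35 of the 60 members were above the latter. The widest were Dnajb4 (SD 0.65), Dnajb7 (0.61) and Dnajb3 (0.61), the last 2 of them J-domain genes of the testis. Their SDs lay at percentiles 99.2, 98.8 and 98.7 of all probe sets. The narrowest were Dnajc25 (0.12), Hsph1 (0.12), the inducible HSP110, and Dnaja3 (0.13), a mitochondrial J-domain protein.

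After 3 months of exposure 2 of the 60 members were altered, and both were lower in the arrays labelled HD. They were Dnajb4, a cytosolic J-domain partner of HSP70, and Dnajc15, a J-domain protein of the inner mitochondrial membrane that slows respiratory complex I. This direction, lower in the arrays labelled HD, is opposite to the one that the study states for these genes and for most transcripts it lists as altered. The study's array fold change for Dnajb4 was of about the same size with the other sign. Its qRT-PCR in other rats also gave Dnajb4 as higher after 3 months of HD than before exposure, and Dnajc15 was not among the genes of that assay. The labels were kept as deposited, and every signed HD value here, markers and partners included, is given as labelled and carries that doubt. Altered means a q-value (the expected share of false calls) under 0.05 in limma over all probe sets. On the whole array 138 of 29214 probe sets were altered (0.472%), 133 of them lower in the arrays labelled HD (0.455%), against 3.33% of the members. Most altered probe sets were thus lower here, where the study gives most as higher. Dnajb4 and Dnajc15 are among the genes that the study itself listed from these samples, so their presence here is not independent evidence.

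Dnajb4 ran from 9.36 through a median of 10.99 to 12.30 in HD and from 10.53 through 12.03 to 12.52 in water. In HD-recovery it ran from 9.35 through 11.86 to 12.52, and in water-recovery from 11.12 through 11.88 to 12.42. The HD and water arrays overlapped, but 18 of the 19 HD values were under the median of water and 6 under its lowest value. The log2 fold change of HD over water was -0.86 (SE 0.20, p = 0.000118, q = 0.0349), a level 1.81-fold lower. Without the arrays that stood apart it was -1.07 (q = 0.00126). The 3 HD arrays that stood apart were among the 4 highest for Dnajb4 in that group. The call was lost without any 1 of 10 HD arrays (replicates 2, 7, 9, 11, 12, 16, 17, 18, 19 and 20) or 10 water arrays (replicates 2, 3, 4, 7, 9, 10, 13, 14, 19 and 20). The fold change then lay between -0.86 and -0.76 and q reached 0.069 at most.

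Dnajc15 ran from 6.43 through a median of 6.97 to 8.02 in HD and from 6.96 through 7.67 to 8.58 in water. After recovery it ran from 6.55 through 7.69 to 9.35 in the HD-recovery rats and from 7.03 through 7.60 to 9.74 in the water-recovery rats. In HD 17 of 19 arrays were under the median of water and 9 under its lowest array. The log2 fold change was -0.55 (SE 0.14, p = 0.000229, q = 0.0483), or 1.46-fold lower, and -0.60 (q = 0.00359) without the arrays that stood apart. The call held without each of 13 arrays (HD replicates 3, 4, 5, 13 and 14 and water replicates 1, 5, 8, 11, 12, 15, 16 and 17) and was lost without each of the other 26, where q reached 0.099 and the fold change lay between -0.56 and -0.50.

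**Figure D1:**
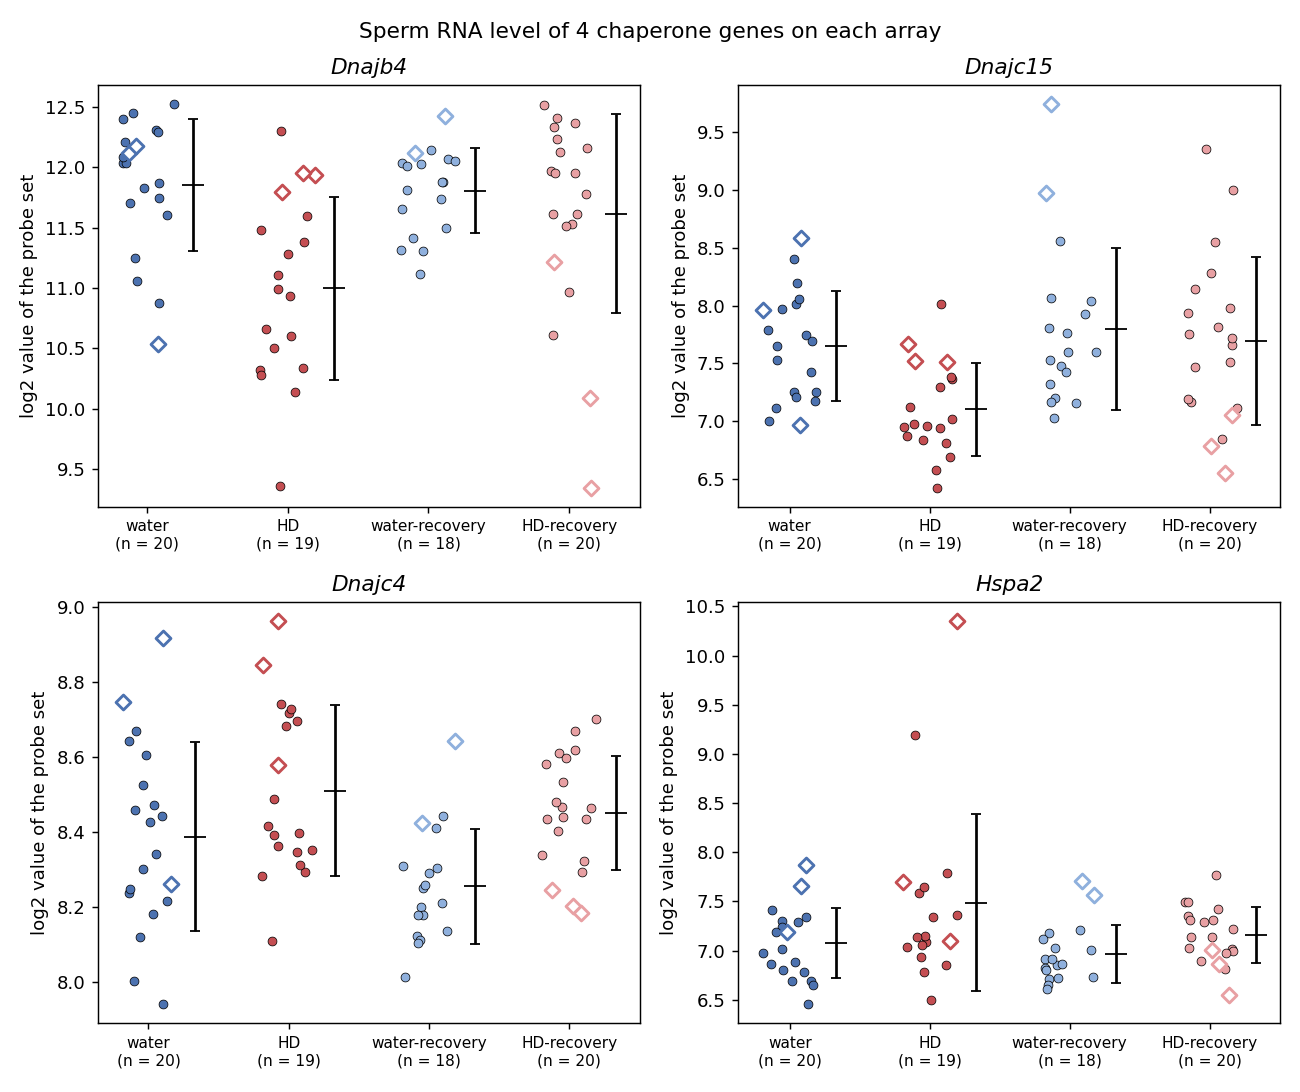
Log2 values of Dnajb4, Dnajc15, Dnajc4 and Hspa2 on each of the 77 arrays by group, 1 point a rat, with the mean and SD as a bar. Open diamonds are the 11 arrays that stood apart. Of the 19 HD points 18 (Dnajb4) and 17 (Dnajc15) lie below the median of water, with overlap, while HD points of Hspa2 overlap water apart from HD replicates 5 and 7.

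Both calls also ended under a change of scaling. With every array's median set to their common mean, Dnajb4 kept its fold change of -0.86 at q = 0.0689 and Dnajc15 its -0.55 at q = 0.101. With all 4 groups in 1 fit, Dnajb4 stayed below the threshold and Dnajc15 did not (q = 0.141).

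Markers of other cells moved with this comparison, again with signs as labelled. For Lyz2, Dcn and Clu the array values of the study have the opposite sign. Its qRT-PCR in other rats gave all 3 as lower after 3 months of HD. For Lyz2 and Dcn that is the sign as labelled here, though neither reached p under 0.05 in the study's t-test. For Clu it is the opposite sign. Of 20 leukocyte and macrophage markers 5 were lower in HD and none higher (Lyz2 -0.95, Fcer1g -0.68, Cd4 -0.56, Ccr2 -0.45 and Cx3cr1 -0.36). The mean of the list ran from 7.15 to 8.07 in HD and from 7.30 to 8.12 in water, and 17 of the 20 markers had array means above that of the median probe set. Of 5 erythroid markers 1 was lower (Ahsp -0.25), of 8 fibroblast markers 1 was lower (Dcn -1.09), and of 8 Sertoli cell markers 1 was higher (Clu 1.11). None of 9 markers of the epididymal epithelium was altered, and of 14 sperm and spermatid markers 1 was lower (Odf1 -0.22, q = 0.0445). With the 11 arrays left out, 14.9% of all probe sets were altered in HD against water, 2322 lower and 2027 higher. In that setting 13 of the 20 leukocyte, 3 of the 5 erythroid and 2 of the 8 fibroblast markers were lower and none higher. Of the epididymal markers 2 were then higher and 3 lower, of the sperm markers 5 higher and 4 lower, and of the Sertoli cell markers 1 higher. The sperm label itself was borne out by its markers, with 13 of 14 above the median probe set and Smcp, Odf1 and Prm1 between 12.9 and 14.0. The brightest markers of 3 other lists were also high, Hbb at 11.1, Cd74 at 10.8 and Dcn at 9.7. The values thus do not show that the pellets held sperm alone. In whole sperm pellets, fewer cells of a type and less RNA per cell cannot be told apart.

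Over the 77 arrays with group means removed, Dnajb4 followed the mean of the leukocyte markers (r = 0.77), that of the erythroid markers (0.69) and, less closely, that of the sperm markers (0.49). Without the arrays that stood apart these 3 were 0.75, 0.75 and 0.35. For Dnajc15 the same 3 values were 0.60, 0.65 and 0.53, and 0.55, 0.60 and 0.37 without those arrays. With the mean of the Sertoli cell markers Dnajb4 stood at -0.44 and Dnajc15 at -0.45 over the 77 arrays. Dnajc4 and Hspa2 followed the sperm and spermatid markers most closely (0.84 and 0.75), and the leukocyte markers at 0.44 and 0.11. All of these points share arrays and scaling, and the part that other cells had in the fold changes of Dnajb4 and Dnajc15 was not tested.

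**Figure D2:**
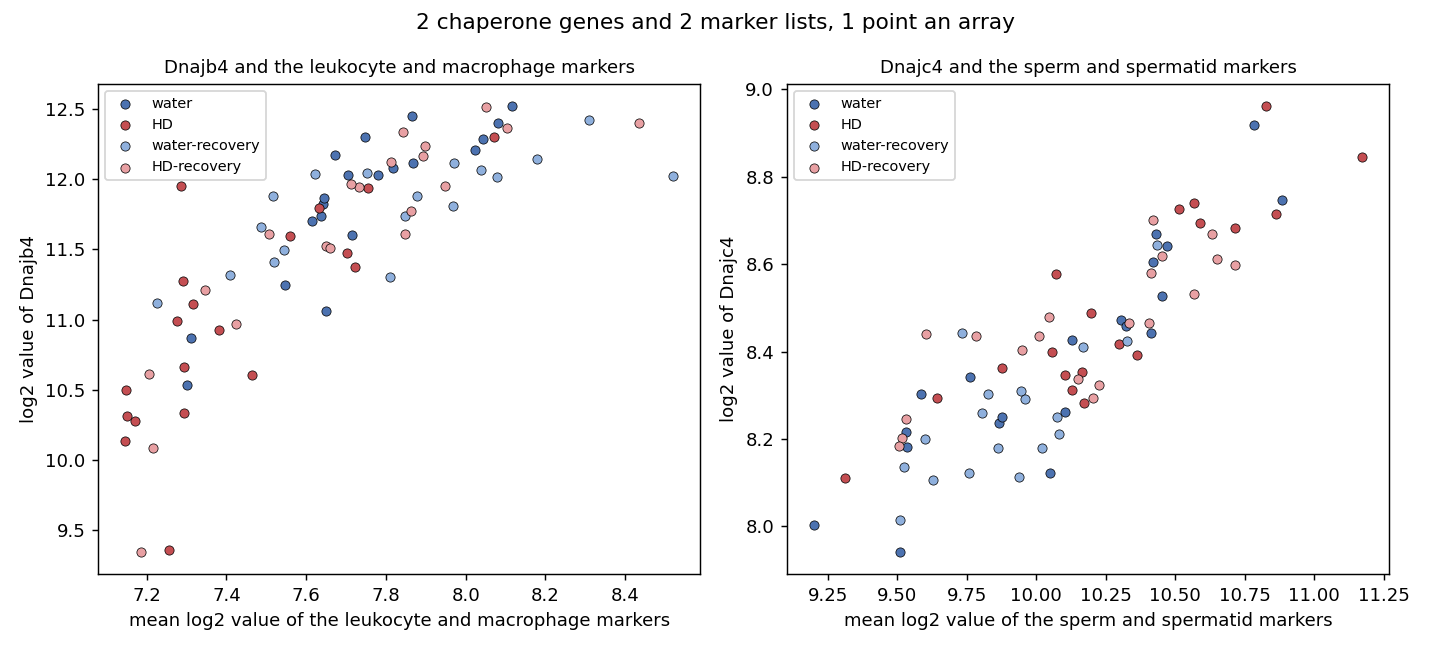
Log2 value of Dnajb4 against the mean log2 value of 20 leukocyte and macrophage markers, and of Dnajc4 against that of 14 sperm and spermatid markers, 1 point an array, coloured by group. Both pairs rise together within groups (r = 0.77 and 0.84 with group means removed), and most HD points lie at the low end of the left panel.

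The other 58 members were not altered in HD against water. At an unadjusted p under 0.05, 3 members were higher, or 5% of them against 3.4% of all probe sets, and 2 were lower, or 3.33% against 4.91%. The median log2 fold change of the members was 0.01, the same as over all probe sets, and 33 of the 60 were above 0 against 56.3% of all probe sets. 

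With all arrays the 4 highest log2 fold changes in this comparison were those of Dnajb7, Dnajb3, Dnajc5g and Hspa2. All were on the testis-enriched list, and none was altered in that setting. Dnajb7 ran from 6.19 through 7.30 to 10.25 in HD and from 6.24 through 6.94 to 8.18 in water, a log2 fold change of 0.52 (SE 0.23, q = 0.516). Dnajc5g, a cysteine string protein of the testis, had 8 of 19 HD arrays above the highest water array (log2 fold change 0.42, SE 0.14, q = 0.248). Dnajb3 stood at 0.42 (SE 0.21, p = 0.0504), and Dnajc28, a mitochondrial J-domain protein, at 0.14 (SE 0.06, q = 0.504). Hspa2 ran from 6.49 through 7.15 to 10.35 in HD and from 6.45 through 7.10 to 7.87 in water. The medians of Hspa2 were near each other, and its log2 fold change of 0.41 (SE 0.21, q = 0.609) fell to 0.25 without HD replicate 5, its highest array. Next came Dnajc18 at 0.31 (SE 0.19, q = 0.758) and Dnajb1 at 0.28 (SE 0.15, q = 0.667), neither of them on that list. Dnajc4 stood at 0.12 (SE 0.08, q = 0.766).

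On the low side the values after Dnajb4 and Dnajc15 were smaller. The next was Dnajc10, a J-domain reductase of the endoplasmic reticulum, at -0.28 (SE 0.17, q = 0.747). It was followed by Hspb9, the small heat shock protein of the testis, at -0.21, Hsp90ab1, the constitutive cytosolic HSP90, at -0.13 and Dnajc3, an inhibitor of the kinase PERK, at -0.12. Without the arrays that stood apart Dnajc10 was at -0.52 (q = 0.00738), Dnajc3 at -0.29 (q = 0.0173) and Hsp90ab1 at -0.29 (q = 0.0238). Movement in that setting was not only downwards. In it 8 members were lower at q under 0.05, Dnajc10, Dnajc3 and Hsp90ab1 among them, and 4 were higher. The 4 higher members are not named here.

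**Figure D3:**
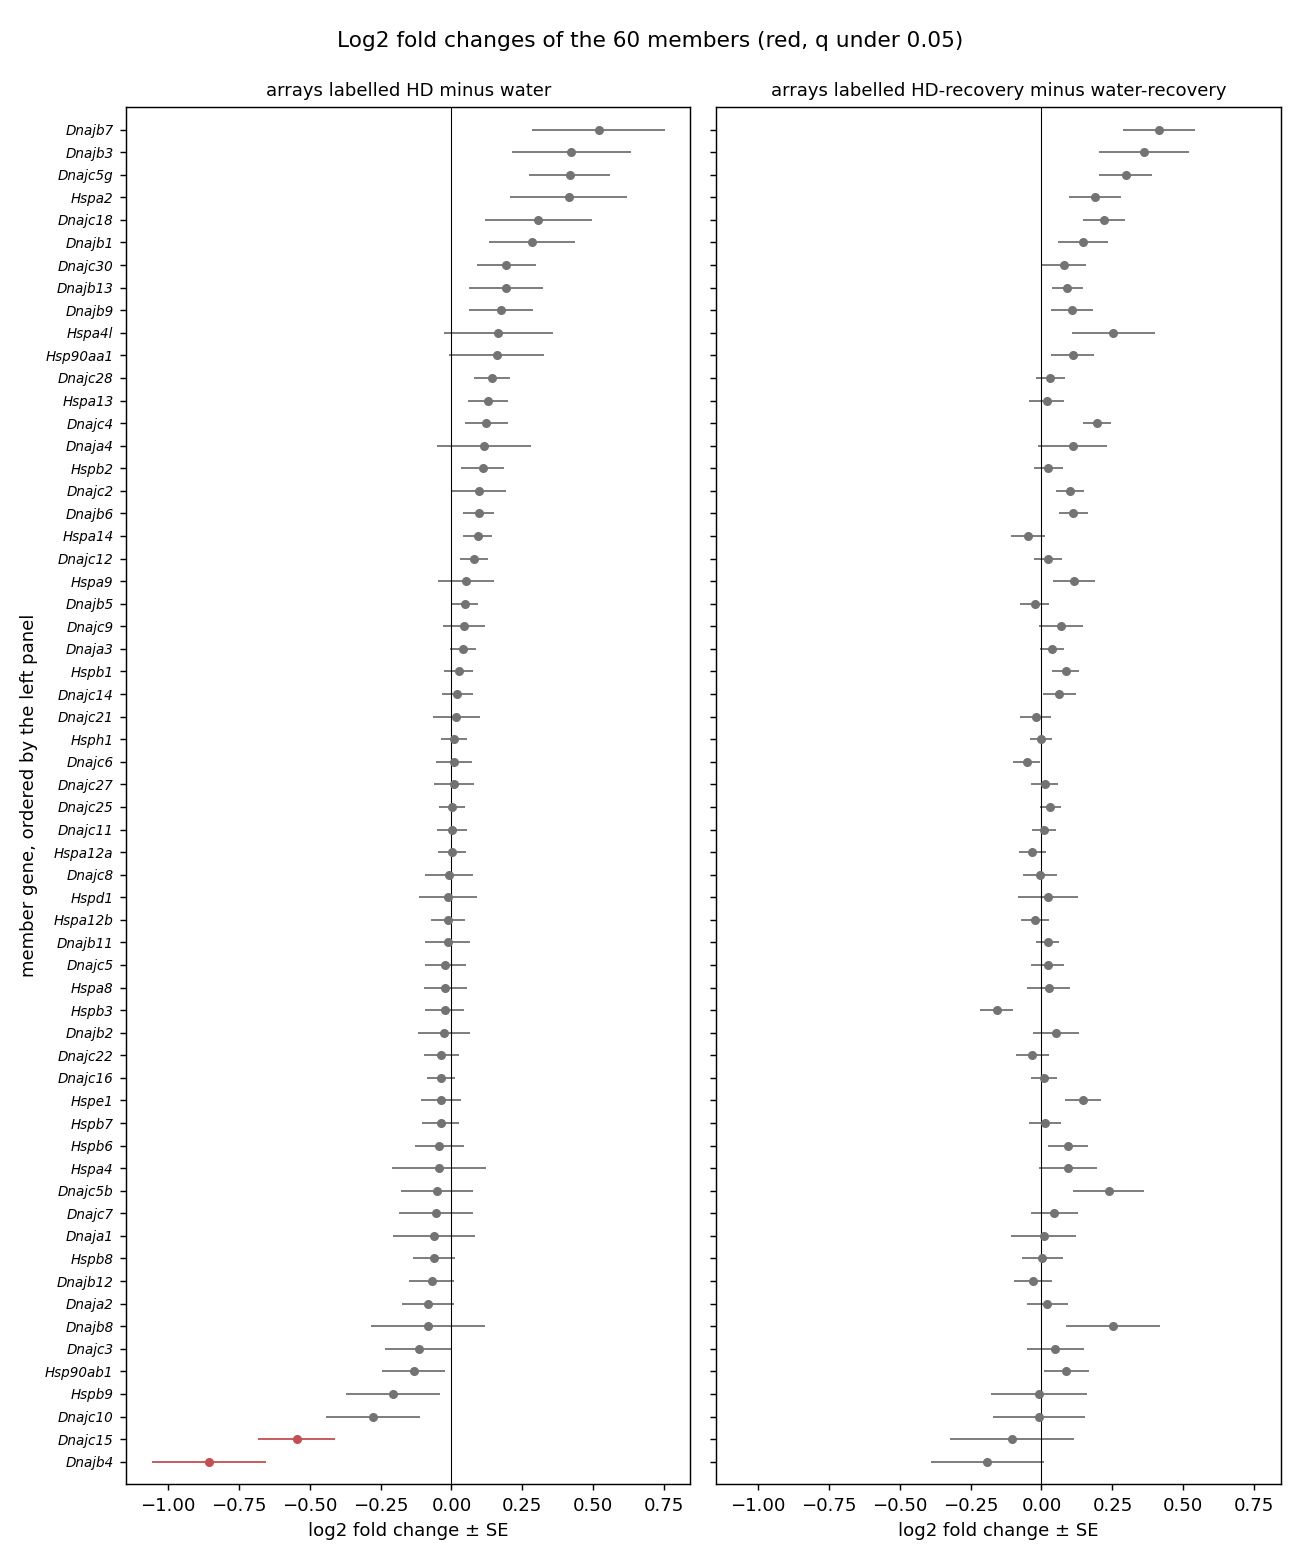
Log2 fold change with its standard error for each of the 60 members in HD against water (left, 19 and 20 arrays) and in HD-recovery against water-recovery (right, 20 and 18 arrays), ordered by the left panel, with altered members in red. Dnajb4 and Dnajc15 are the only red points, at -0.86 and -0.55 on the left, and their right-hand values are -0.19 and -0.10.

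The classes of chaperone were alike in this comparison in having few or no altered members. None of the 10 HSP70 and HSP110 genes was altered (median log2 fold change 0.03, from -0.04 to 0.41), none of 7 small heat shock proteins (median -0.04), none of the 4 genes of HSP90, HSP60 and HSP10 (median -0.02) and none of 4 Dnaja genes (median -0.01). Among the 12 Dnajb genes 1 was altered (Dnajb4, median 0.07), and among the 23 Dnajc genes 1 (Dnajc15, median 0.01, which was just below 0 under quantile normalization). By compartment, 1 of 8 mitochondrial members was altered, again Dnajc15, and none of 10 members of the endoplasmic reticulum.

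No stress-inducible member passed the test. Hspa1a and Hspa1b, the classical inducible HSP70 genes, share a probe set with Hspa1l that carries several symbols and were not counted, which left 6 of 8. None of the 6 was altered in HD against water, with log2 fold changes of 0.28 for Dnajb1 (SE 0.15, q = 0.667), 0.16 for Hsp90aa1, 0.03 for Hspb1, 0.01 for Hsph1, -0.01 for Hspd1 and -0.04 for Hspe1. Hsph1 ran from 6.57 through 6.79 to 7.00 in HD and from 6.42 through 6.74 to 7.09 in water. Its promoter, shown above, holds the element of 3 units. Hsp90aa1 reached 11.09 and 9.44 in HD replicates 5 and 7, against a highest water array of 8.69, and its log2 fold change was -0.04 once the arrays standing apart were left out. Hspd1 and Hspe1, the mitochondrial chaperonin and its lid, which run away from each other out of the promoter shown, correlated at r = 0.30 over the 77 arrays.

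Of 10 genes fixed as enriched in testis 9 were measured, and none was altered at q under 0.05 in HD against water. Their median log2 fold change was 0.19, with 6 of 9 above 0, where the 14 sperm and spermatid markers had 0.30. After recovery the median was 0.25, with 8 of 9 above 0 and none altered, and the sperm markers had 0.22. Under the other 2 scalings the medians of the 9 genes lay between 0.16 and 0.19 and between 0.19 and 0.26. Between water-recovery and water all 9 values were below 0 (median -0.22), with none altered, where 13 of the 14 sperm and spermatid markers were below 0 (median -0.19) and 50.9% of all probe sets were above 0. The part of the sperm share of each pellet in these values was not tested.

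After 3 months of recovery no member and no probe set on the array was altered between HD-recovery and water-recovery (0% of 29214). At an unadjusted p under 0.05 8 members were higher, or 13.3% against 2.86% of all probe sets, and 1 was lower, or 1.67% against 1.65%. Of the 60 members 45 were above 0, against 46.4% of all probe sets, with a median of 0.03 against -0.01. The 8 higher ones were Dnajc4, Dnajb7, Dnajc5g, Dnajc18, Hspe1, Dnajb3, Dnajb6 and Hspa2, and the lower one was Hspb3, a small heat shock protein known from muscle. Several of these 8 vary together between rats, so they are not 8 separate observations.

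Dnajc4 had the smallest p of the members after recovery. It ran from 8.18 through 8.45 to 8.70 in HD-recovery and from 8.02 through 8.23 to 8.64 in water-recovery, and 18 of 20 HD-recovery arrays lay above the water-recovery median. The log2 fold change was 0.20 (SE 0.05, p = 0.000398, q = 0.72). Dnajb7 ran from 6.23 through 7.02 to 7.96 in HD-recovery and from 6.06 through 6.56 to 7.07 in water-recovery, with 9 of 20 HD-recovery arrays above the highest of water-recovery. Its log2 fold change was 0.41 (SE 0.13, q = 0.72). Dnajc5g stood at 0.30 (SE 0.09, q = 0.72), Dnajc18, a membrane-bound J-domain protein, at 0.22 (SE 0.07, q = 0.753) and Hspb3 at -0.16 (SE 0.06, q = 0.865). Hspa2 stood at 0.19 (SE 0.09), with 17 of 20 HD-recovery arrays above the water-recovery median.

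Without the arrays that stood apart this comparison looked otherwise. On 33 arrays 15 members were higher and 2 lower at q under 0.05, or 28.3% of the members, where 13.1% of all probe sets were altered. Of the 9 testis-enriched genes 8 were then higher, with a median of 0.41, and of the 14 sperm and spermatid markers 10 were higher and none lower, with a median of 0.35. Dnajc4 was at 0.27 (q = 0.000482), Dnajb8 at 0.58 (q = 0.00181), Dnajb3 at 0.62 (q = 0.00321) and Hspa2 at 0.33 (q = 0.00386). In HD against water the same step gave 4 higher and 8 lower members, or 20% against 14.9% of all probe sets. The part of the sperm markers in the change of the testis-enriched genes was not tested.

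**Figure D4:**
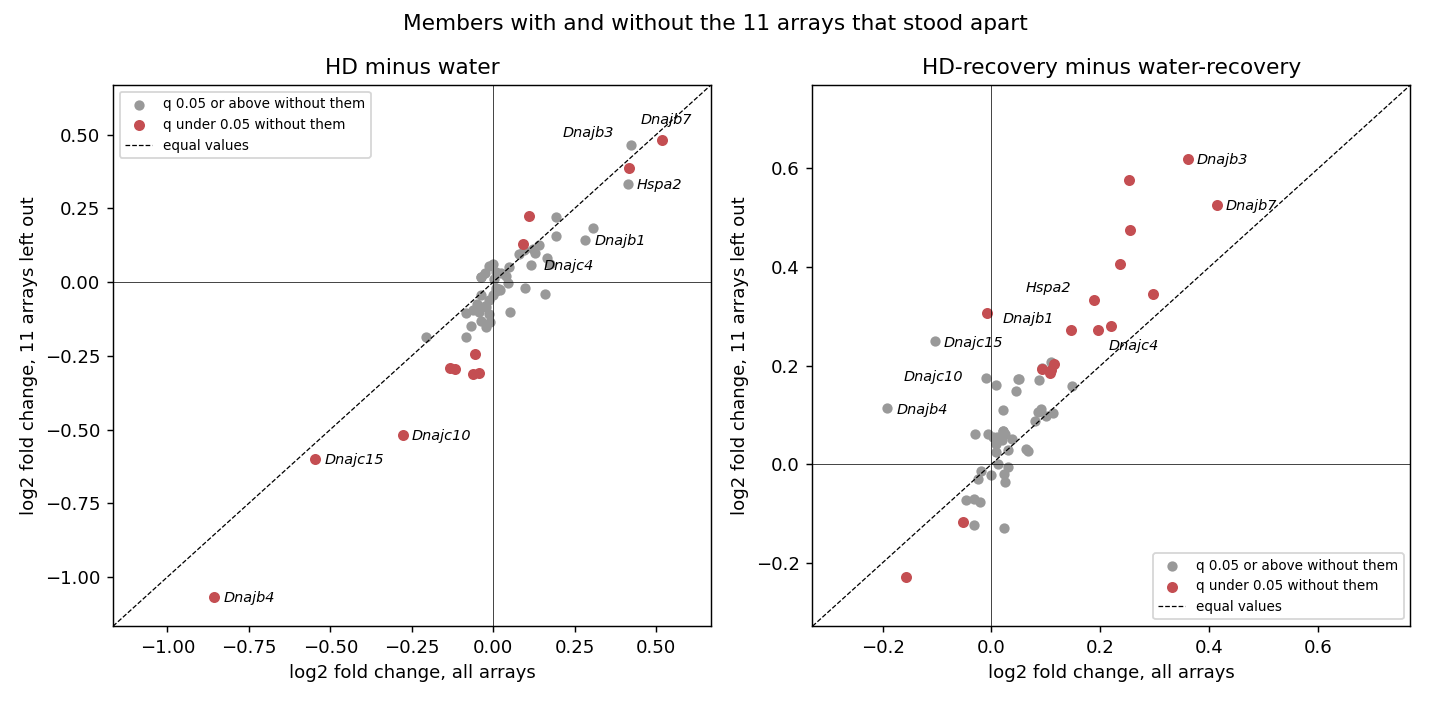
Log2 fold change of each of the 60 members with all arrays (x axis) and with the 11 arrays that stood apart left out (y axis), for HD minus water and HD-recovery minus water-recovery. Red points passed q under 0.05 without those arrays, 12 on the left and 17 on the right, and the dashed line marks equal values. Dnajb4 moved from -0.86 to -1.07 on the left and from -0.19 to 0.11 on the right.

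The 2 HD comparisons share no array. Their log2 fold changes across the 60 members had a correlation of 0.70, against 0.30 across all probe sets. Of the members 27 were above 0 in both and 9 below 0 in both. Like sign was thus held by 36 of the 60, near the share of 53.2% over all probe sets. Members are not independent of each other. With the 11 arrays left out the correlation was 0.13, against -0.37 across all probe sets. In that setting 21 members were of like sign, and the share over all probe sets was not counted. The likeness of the 2 comparisons was thus lost with those arrays.

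The test of the difference between the HD effects at the end of exposure and after recovery found no altered member and no altered probe set (0%). At an unadjusted p under 0.05 1 member of 60 (1.67%) passed, against 3.38% of all probe sets. It was Dnajb4, whose difference was -0.66 (SE 0.29, p = 0.0245). For Dnajc15 the difference was -0.44 (SE 0.26, p = 0.0967). Their HD-recovery arrays stood near the water-recovery arrays, with log2 fold changes of -0.19 (SE 0.20) for Dnajb4 and -0.10 (SE 0.22) for Dnajc15. Without the arrays that stood apart the differences were -1.18 for Dnajb4 (q = 0.00138) and -0.85 for Dnajc15 (q = 0.00345), where 48.1% of all probe sets passed.

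In exposed rats the recovery groups were also set against the groups killed at the end of exposure, which share arrays with the comparisons above. Time of collection and age cannot be told apart there. Between HD-recovery and HD 45 probe sets were altered (0.154%) and no member was. At an unadjusted p under 0.05 3 members were higher (5% against 4.28%) and 6 lower (10% against 5.27%). The higher ones were Dnajb4 at 0.62 (SE 0.20, q = 0.193), Dnajc15 at 0.59 (SE 0.18, q = 0.168) and Dnajc16 at 0.12 (SE 0.05). The lowest were Dnajb7 at -0.49 (SE 0.19, q = 0.307) and Dnajc5g at -0.35 (SE 0.12, q = 0.242). Without HD-recovery replicate 2, the lowest array for Dnajb4, that gene passed at 0.74 (q = 0.0459).

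Between water-recovery and water rats no member and no probe set was altered (0%). At an unadjusted p under 0.05 3 members passed (5% against 4.7%), all lower in water-recovery. They were Hspe1 at -0.23 (SE 0.07, p = 0.00128), Dnajc4 at -0.13 (SE 0.07, p = 0.0458) and Dnajb7 at -0.39 (SE 0.19, p = 0.0489). Dnajb4 differed by -0.05 (SE 0.21) and Dnajc15 by 0.15 (SE 0.19) between the control groups.

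Within groups the members fell into sets that rose and fell together from rat to rat. Of 1770 pairs, 325 had r above 0.5 and 81 below -0.5, over 77 arrays with group means removed. The first component of all probe sets held 41.9% of the variance within groups, so much of the variation was shared across the array. The share of such pairs among other genes was not measured. Dnajb4 was closest to Dnajb8 (r = 0.78), Hspb9 (0.77), Hsp90ab1 (0.76), Hspa4l (0.71), an HSP110 enriched in testis, and Hspa4 (0.71). Dnajc15 was closest to Hspb9 (0.80), Dnajb2 (0.74) and Dnajb8 (0.73), and stood at 0.66 with Dnajb4. Of the 60 members 9 were on the testis-enriched list, and Dnajc4 and Hspa2 also had several of them among their 8 nearest members. The 8 members nearest to Dnajb4 and the 8 nearest to Dnajc15 together included 4 testis-enriched members, Dnajb8, Hspb9, Hspa4l and Dnajc5b (0.69 with Dnajc15). Their own log2 fold changes in HD against water were -0.08 for Dnajb8, -0.21 for Hspb9, 0.17 for Hspa4l and -0.05 for Dnajc5b, none of them altered.

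Hspa2 was closest to Dnajc18 (0.86), Dnajb7 (0.83), Dnajb1 (0.83), Hsp90aa1 (0.81), Dnajb13 (0.79), a radial spoke protein of the sperm tail, and Dnajc5g (0.78). Part of this rested on single arrays, and with the 11 left out the same 6 values were 0.70, 0.72, 0.71, 0.68, 0.58 and 0.67. Dnajc4 was closest to Dnajb8 (0.83), Dnajb3 (0.81) and Hspa4l (0.79). The closest pair of all was Dnajb8 with Hspb9 (0.93, and 0.91 without those arrays), followed by Dnajc10 with Dnajc3 (0.88), both of the endoplasmic reticulum. Dnajc6, the auxilin that strips clathrin from vesicles, ran the other way, at -0.75 with Dnajb8 and -0.70 with Dnajc4.

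**Figure D5:**
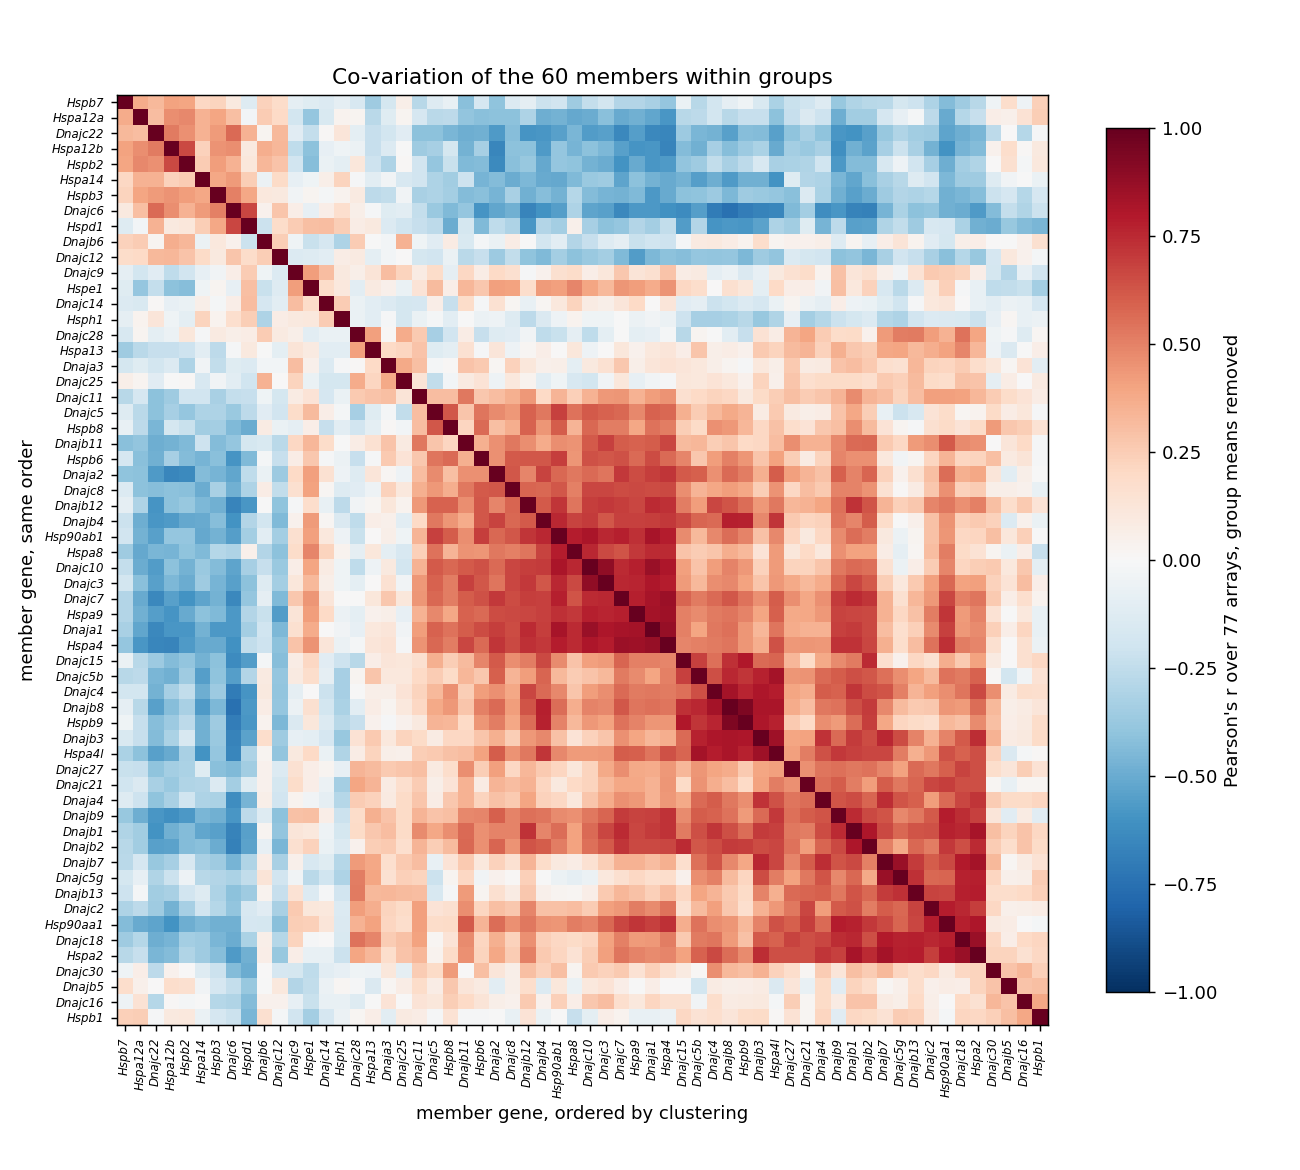
Pearson's r between all pairs of the 60 members over 77 arrays with group means removed, red for positive and blue for negative, with both axes in 1 clustering order. Red blocks along the diagonal hold Hspa4, Dnaja1, Dnajc10 and their neighbours, then Dnajc4, Dnajb8, Hspb9, Dnajb3 and Hspa4l, then Hspa2, Dnajc18, Dnajb7 and Dnajc5g, and Dnajc6 is blue against most of them.

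Only 3 members had more than 1 probe set. The 8 of Hspa8, the constitutive HSP70, correlated at 0.90 or more and lay between -0.07 and -0.01 in HD against water. The 2 of Hspd1 correlated at 0.93, and the 2 of Dnajb12 held equal values on 100% of the arrays. No second probe set went against the first at an unadjusted p under 0.05. Hspa8 and Hspd1 have many processed copies in the genome, so their probe sets may also read other loci.

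The partners of these chaperones gave 2 altered genes of 46 measured out of 50 listed, and both were lower in the arrays labelled HD, opposite to the study's direction. This was 4.35% of the partners against 0.472% of all probe sets. Sil1, which exchanges the nucleotide of the HSP70 of the endoplasmic reticulum, stood at -1.25 (SE 0.22, q = 0.00405), and at -1.42 without the arrays that stood apart. Hsf2bp, a meiotic protein that binds heat shock factor 2, stood at -0.39 (SE 0.09, q = 0.0316). After recovery neither was altered against water-recovery, and Sil1 was higher in HD-recovery than in HD (1.01, q = 0.0167). Both genes are among those the study listed from these samples. The median over the 46 partners was near 0 in HD against water, with 23 above 0.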

How the data were processed

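Sperm RNA of 77 rats was measured on Affymetrix Rat Gene 1.0 ST arrays, 1 array a rat. Sperm from the cauda epididymides had been washed in a buffer that lyses somatic cells before extraction. The authors normalized the probe intensities and deposited 1 table of log2 values for 29214 probe sets. The scale was read from the values, which ran from 2.51 to 14.63. Neither the normalization method nor a genome build was given in the sources used here. Gene symbols came from the platform annotation: 15310 probe sets had 1 symbol, 323 several and 13581 none. No depth applies to arrays, and their number limits the precision.

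Groups came from the sample labels. Each HD group and its control were fitted with limma 3.58.1 in R 4.3.3 over all probe sets, after the study's methods, and the other comparisons in 1 fit of all 4 groups. P-values became Storey q-values (smoother over lambda from 0.05 to 0.95), called under 0.05. The fit was tested on simulated data. Promoter letters were searched with Python. Alternatives covered scaling, weights, adjustment, filters, covariates, arrays left out and a replicate block.

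The members and lists were chosen with earlier results of these data known. Named are altered members; Dnajb4, Dnajc15, Dnajc4 and Hspa2; the 6 smallest p-values each way in both HD comparisons; the 3 widest and 3 narrowest members; and the stress-inducible and testis-enriched lists. Others named were chosen after their values were seen.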

Additional observations from a re-analysis of the deposited data

How the results depend on the processing

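In HD against water the 2 altered members stayed 2 under quantile normalization, Benjamini-Hochberg adjustment, a covariate for replicate numbers 1 to 10 against 11 to 20, a filter on dim probe sets and the mean of all probe sets of a gene. The count was 0 with array medians centred, 1 with all 4 groups in 1 fit, 14 with array weights, 12 without the arrays that stood apart and 0 to 2 with each array left out in turn. For HD-recovery against water-recovery it was 7 with array weights and 17 without those arrays, for the difference between the HD effects 20 and 28, and for HD-recovery against HD 23 and 22, with 0 to 1 when single arrays were left out. All other counts stayed at 0, water-recovery against water included. Over the whole array, the 138 altered probe sets in HD against water were 63 with medians centred, 352 with quantile normalization, 5178 with array weights, 4349 without those arrays, 221 with all 4 groups in 1 fit and 222 among probe sets above the median mean. The 45 in HD-recovery against HD were 16, 120, 13211, 13372, 9 (only the 2 groups compared) and 84 likewise. In HD-recovery against water-recovery they were 527 with array weights and 3834 without those arrays, and in the difference 9833 and 14059. With each array left out in turn the 138 ran from 76 (without water replicate 10) to 376 (without HD replicate 14), and the 45 from 16 (without HD-recovery replicate 4) to 172 (without HD replicate 14). Array weights and leaving out arrays both reduce the pull of distant arrays and so the spread.

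The sign turned for some members that were not altered. In HD-recovery against water-recovery Dnajc15 was at 0.092 with array weights, at 0.25 without the arrays that stood apart and between -0.19 and 0.010 with each array left out in turn (0.010 without water-recovery replicate 15), and Dnajb4 was at 0.11 without those arrays. Without them Hspa2 was at -0.00019 in the difference, Dnajc15 at -0.013 in water-recovery against water and Dnajc4 at 0.036 in HD-recovery against HD (0.017 with array weights). The cause was not tested.

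Replicate numbers were not taken to pair the rats. Same-numbered HD and water arrays correlated from -0.58 to 0.65, above 0.1 in 8 of 19 pairs. The pairs above 0.1 were 8 of 18 for HD-recovery and water-recovery and 6 of 18 for water-recovery and water. For HD-recovery and HD they were 10 of 19, with a median of 0.19. Differently numbered arrays were not compared, so these values do not settle whether the numbers carry a pairing. With the replicate block 1 member was altered in HD against water, Dnajb4, with Dnajc15 at q = 0.0579, and 0 in the other comparisons.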
